A study of Mus musculus with 32 samples.

Results

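The genes described here are 10 genes that move bile acids and other biliary solutes across the hepatocyte membrane or carry the signal of the bile acid receptor FXR, out of 35523 genes quantified in mouse liver. They were chosen by name: Slc10a1, Abcb11, Abcb4, Abcc2, Atp8b1, Abcc3, Abcc4, Nr1h4, Nr0b2 and Fgfr4. All 10 passed the filter on low counts in every comparison. The study asked what the loss of NUDT7, a peroxisomal enzyme that hydrolyzes CoA and acyl-CoAs, does to the liver under a Western diet. Liver mRNA was sequenced from 32 C57BL/6J mice, 4 in each of 8 groups.

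The groups were Nudt7-/- (KO) and wild type (WT) males and KO and WT females, each fed a Western diet (WD) or a low-fat control diet (CD). The WD supplied 41% of its energy as fat and held 0.2% cholesterol, and the CD supplied 10% of its energy as fat and held no cholesterol. Feeding began at 6 weeks of age, and livers were collected between 17 and 20 weeks. The KO is a whole-body deletion of exons 3 and 4 made by genome editing in FVB zygotes and carried onto C57BL/6J, with WT littermates as controls, so it is not restricted to the liver and derives from a single founder. The labels do not say whether the sequenced livers came from fed or fasted mice, and replicate numbers name different animals.

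Hepatocytes take up conjugated bile acids from portal blood at the basolateral membrane and pump them into bile at the canalicular membrane, where phospholipid and organic anion pumps work beside the bile salt pump. When bile acids accumulate in the cell, efflux pumps of the basolateral membrane can return them to the blood. FXR is a nuclear receptor that binds bile acids, and in liver it is known to raise the repressor SHP and the export pumps, while the intestinal hormone FGF15 acts on hepatocytes through FGFR4.

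The library totals ran from 10140048 to 15825078 estimated counts (median 13000302). Nudt7 was lower in every KO library than in each WT library matched for sex and diet, with 41.0–156 CPM in KO against 372–599 CPM in WT males on the WD. CPM are counts scaled to a fixed library size with TMM factors. Hepatocyte markers were high in all 32 libraries (Alb 31009 to 78754 CPM), whereas Krt7, Krt19, Epcam and Cftr, 4 of 8 cholangiocyte markers, stayed at or below 3.88 CPM. The other 4 cholangiocyte markers were higher, with Spp1 at 24.2 to 93.2 CPM, Slc10a2 at 4.63 to 63.0 CPM, Sox9 at 4.07 to 14.1 CPM and Tff2 at up to 30.6 CPM. Pancreatic acinar transcripts reached 474 to 6119 CPM, summed over the list, in 4 female libraries. These were WT on the CD replicates 2 and 4, KO on the CD replicate 3 and WT on the WD replicate 4. In the others the sum was 125 CPM at most, in KO females on the CD replicate 2, followed by 74.3 CPM in WT males on the WD replicate 1. Libraries of 1 group correlated at 0.960 to 0.992 (Spearman), and none was a copy of another.

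To compare levels between genes, TPM of the protein-coding transcripts were used, which divide by transcript length. Slc10a1 was the most abundant member at 570 ± 125 TPM (SD, n = 32), above Abcb11 in all 32 libraries. Abcb11 followed at 218 ± 36.5 TPM, above Abcc2 in 29 libraries. Abcc2 stood at 132 ± 27.1 TPM, above Abcb4 in 31. The next 4 genes were closer together. Abcb4 had 80.3 ± 22.9 TPM and was above Nr1h4 in only 21 of 32 libraries. Nr1h4 had 68.8 ± 9.93 TPM and was above Abcc3 in 27. Abcc3 had 43.8 ± 20.96 TPM and was above Nr0b2 in 18, so these neighbours in the order overlap widely. Nr0b2 stood at 39.7 ± 13.1 TPM, Fgfr4 at 16.2 ± 2.40 TPM and Atp8b1 at 12.1 ± 2.22 TPM. Abcc4 was the least abundant at 1.17 ± 0.889 TPM, with 21 to 254 counts per library, and its low counts limit its precision.

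**Figure D1:**
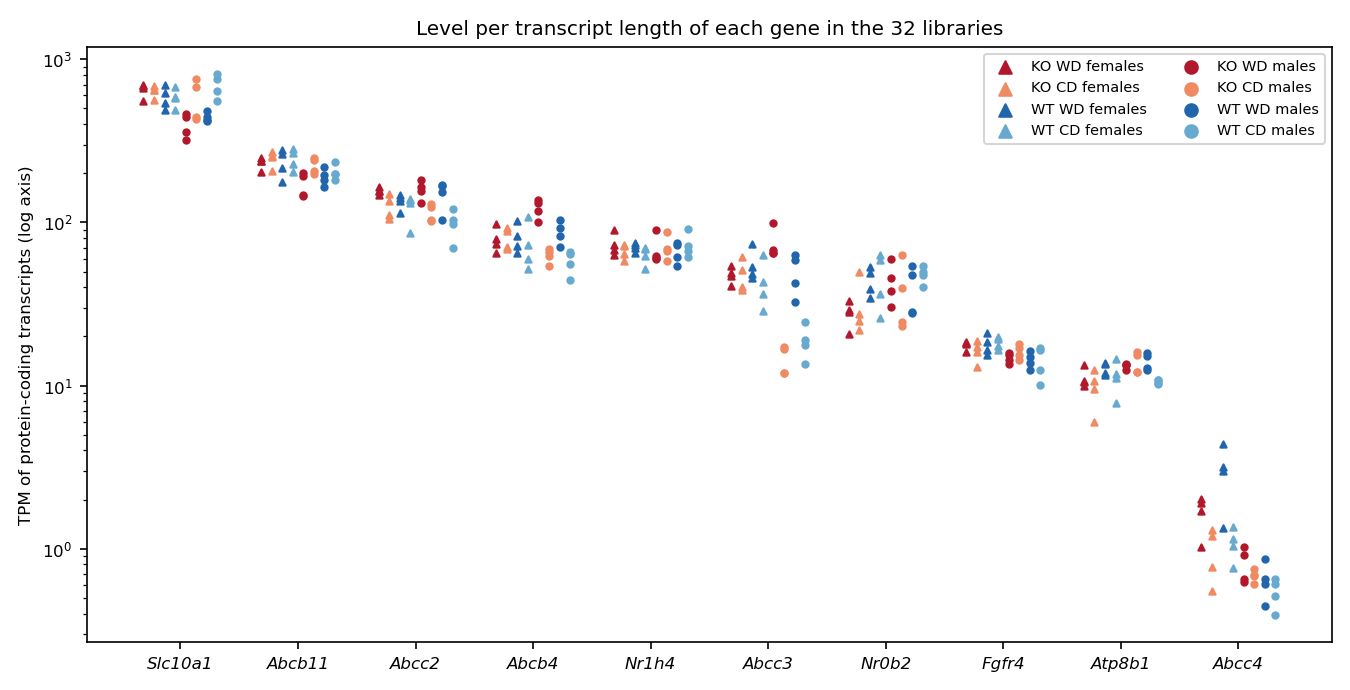
Level of each member in TPM of its protein-coding transcripts, on a log axis, with 1 point per library (32 libraries), females as triangles and males as circles, colours for genotype and diet, and the genes in order of their mean. Slc10a1 lies above every other member in all 32 libraries, and Abcb4, Nr1h4, Abcc3 and Nr0b2 overlap.

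The first question was what the diet did to each gene. In WT males 4 of the 10 genes passed the edgeR quasi-likelihood test with Benjamini-Hochberg adjustment over all genes, where 13.7% of 12235 genes tested passed. Abcc3, Abcb4 and Atp8b1 were higher on the WD and Slc10a1 was lower. In KO males Abcc3 and Abcb4 rose, 2 of 10 genes, where 2.60% of all genes passed. None of the 10 genes passed in WT females, where 0.0785% of all genes passed, or in KO females, where 0.125% passed. At an unadjusted p under 0.05 there was 1 of the 10 genes in WT females and 1 in KO females, Abcc4 in both, and DESeq2 with length offsets called none in either. Over all genes these were 1078 of 12737 in WT females and 1268 of 12840 in KO females. Libraries on the WD and the CD did not overlap for 5 members in WT males (20.1% of all genes), 3 in KO males (10.9%), 0 in WT females (5.10%) and 0 in KO females (5.68%). The median log2 fold change was 0.13 over the members and 0.01 over all genes in WT males, and -0.03 over the members and 0.01 over all genes in KO males.

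**Figure D2:**
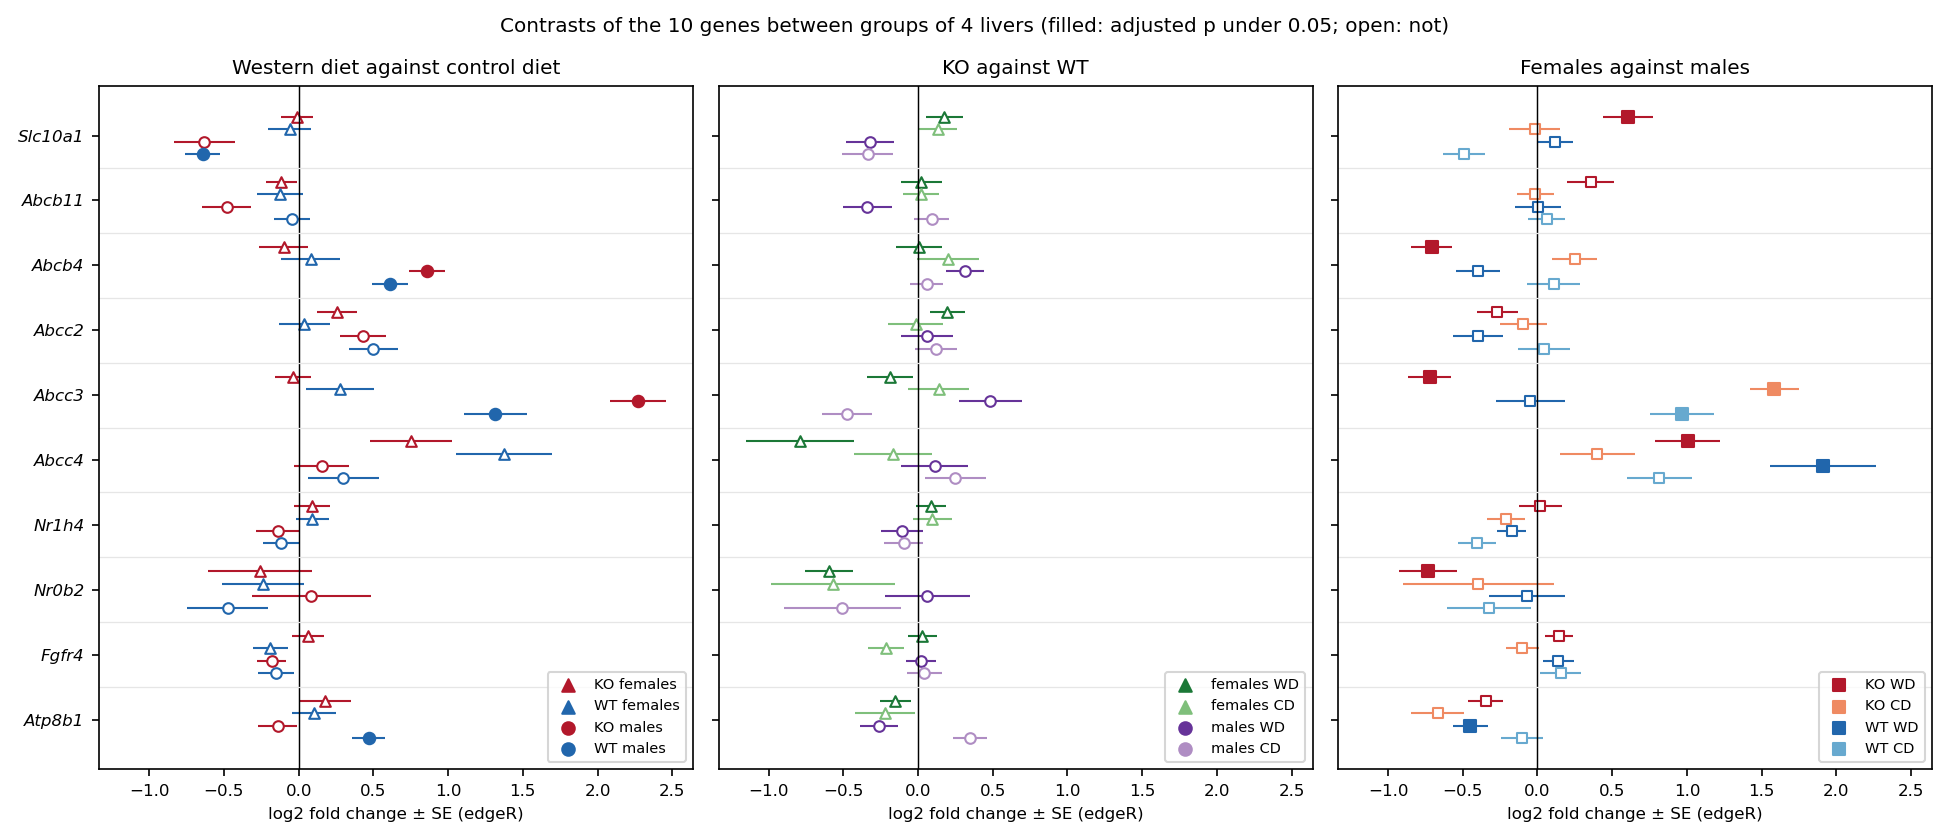
Log2 fold change of each member for WD against CD, for KO against WT and for females against males in their 4 pairs of groups each, each ± SE from edgeR, and calls at an adjusted p under 0.05 drawn filled. Abcc3 and Abcb4 are to the right of 0 on the WD in males of both genotypes, at 2.27 and 0.86 in KO males.

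Slc10a1 (chr12:80953183-80968705, minus strand, GRCm38) encodes NTCP, the sodium-dependent carrier that takes conjugated bile acids up from portal blood. WT males had 567, 561, 586 and 476 CPM on the WD, against 975, 881, 839 and 733 CPM on the CD. All WT males on the WD were below all WT males on the CD. The log2 fold change was -0.64 ± 0.12 (SE; adjusted p = 0.00689, edgeR, 4 libraries each). KO males had 310.4, 548, 410.0 and 466 CPM on the WD, against 856, 523, 776 and 547 CPM on the CD. The KO groups overlapped, because KO males on the CD replicates 2 and 4 stood as low as the highest library on the WD, and the fold change of -0.63 ± 0.21 did not pass (adjusted p = 0.139, edgeR). As a contrast in the model of all 32 libraries it passed (adjusted p = 0.0122, edgeR).

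The means of Slc10a1 in females were close on both diets. KO females averaged 664 ± 74.3 CPM on the WD and 665 ± 50.4 CPM on the CD, a log2 fold change of -0.01 (95% interval -0.22 to 0.20). WT females averaged 589.7 ± 81.2 CPM on the WD and 608 ± 79.9 CPM on the CD, a log2 fold change of -0.06 (-0.34 to 0.22). The difference between the diet effects, females minus males, was 0.61 ± 0.15 and did not pass after adjustment (adjusted p = 0.0985, edgeR). It passed with DESeq2 with length offsets (adjusted p = 0.0173) and without KO males on the WD replicate 2 (adjusted p = 0.0483, edgeR). The summed hepatocyte markers moved with diet too, at 47165–71824 CPM on the WD against 72552–99191 CPM on the CD in KO males and at 62452–69233 CPM on the WD against 76775–88810 CPM on the CD in WT males. They were also lower on the WD in WT females, at 67270–75999 CPM against 80708–97750 CPM on the CD. In KO females the marker sums overlapped between the diets, at 63073–83564 CPM on the WD against 79215–102668 CPM on the CD. Their part in the Slc10a1 result was not tested, and in liver pieces fewer hepatocytes and less RNA per hepatocyte cannot be told apart.

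The sexes used the transcripts of Slc10a1 in different proportions. Its counts came mainly from 2 transcripts that begin at different places, Slc10a1-202 at position 80968705 with a noncoding first exon of 95 bases, and Slc10a1-201 at position 80968079, 626 bases downstream, and they encode the same protein. The RefSeq sequence (GRCm38.p6, minus strand) of the 250 bases before each start is shown because the share of the upstream start is what differed. The first lies at chr12:80968706-80968955 and the second at chr12:80968080-80968329, and capitals mark AGGTCA, the half-site that nuclear receptors including FXR can bind.
Before Slc10a1-202: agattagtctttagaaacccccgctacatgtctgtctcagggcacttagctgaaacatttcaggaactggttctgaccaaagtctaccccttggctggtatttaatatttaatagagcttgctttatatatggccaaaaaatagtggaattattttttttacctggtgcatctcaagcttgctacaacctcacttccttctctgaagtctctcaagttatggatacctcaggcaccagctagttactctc
Before Slc10a1-201: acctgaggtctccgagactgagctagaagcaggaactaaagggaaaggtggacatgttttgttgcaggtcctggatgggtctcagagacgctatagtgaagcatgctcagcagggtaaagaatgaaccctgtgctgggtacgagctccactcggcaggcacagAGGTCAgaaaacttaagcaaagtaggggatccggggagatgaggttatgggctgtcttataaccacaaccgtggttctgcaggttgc

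Windows of 300 bases, 250 before and 50 after a RefSeq start, were used for 8 of the 10 genes (10 windows). None was available for Abcc3, and member windows on chromosome 18, which holds Atp8b1, were left out. AGGTCA or its reverse complement TGACCT occurred in 4 of these windows, with its first base at -87 in the second Slc10a1 window, -56 in Abcb11, -214 in Nr1h4 and -49 in Abcc2. Of all 32817 windows in the table, 16.3% held one. The inverted repeat of this half-site with 1 base between its arms (IR1), the arrangement bound by FXR with its partner RXR, was in 3 of all windows and in 0 of the 10. A match is only a run of letters in a short window, and its absence says nothing about the factor.

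The share of Slc10a1 counts given to the upstream transcript Slc10a1-202 ran from 10.1% to 22.2% (median 16.4%) in the 16 females and from 18.4% to 51.1% (median 32.6%) in the 16 males. The share of Slc10a1-201 was 16.4 percentage points higher in females than in males, by a permutation test of sex within genotype and diet (p = 1e-05, the smallest that 100000 resamples can give, two-sided), a test chosen after the shares had been seen. On the CD it was 83.4 ± 1.01% in WT females and 59.0 ± 4.33% in WT males, and in KO mice 81.9 ± 5.597% in females and 62.6 ± 15.8% in males. Within single pairs, WT females and WT males did not overlap on either diet, and KO females and KO males overlapped on both. No pair passed after adjustment (smallest adjusted p = 0.514, exact permutation test). With 72 tests and a smallest possible p of 0.0286, full separation in a few pairs cannot pass, so the pair tests decide nothing. With shares of TPM in place of counts the difference was 15.6 points (permutation p = 1e-05). As 50-base paired reads tell these transcripts apart only near the 5′ end, the shares are estimates from a small part of each transcript.

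Both transcripts were lower on the WD in WT males. Slc10a1-202 had 149, 183, 181 and 158 CPM on the WD, against 423, 354, 341 and 239 CPM on the CD. Slc10a1-201 had 409, 371, 395 and 312 CPM on the WD, against 530.2, 517, 488 and 475 CPM on the CD. Neither transcript overlapped between the diets, and the relative difference was the larger for Slc10a1-202. In KO males Slc10a1-202 had 57.0, 155, 115 and 160.2 CPM on the WD, against 437, 123, 367 and 116 CPM on the CD. Replicates 1 and 3 of the KO males on the CD were thus high and replicates 2 and 4 were in the range of the WD. Slc10a1-201 was tight in the KO males on the CD, at 402, 393, 396 and 423 CPM, so the spread of total Slc10a1 in these mice lay in the upstream transcript. On the WD the KO males had 250.1, 380.5, 284 and 298 CPM of Slc10a1-201. In females Slc10a1-202 stayed between 59.3 and 152 CPM.

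**Figure D3:**
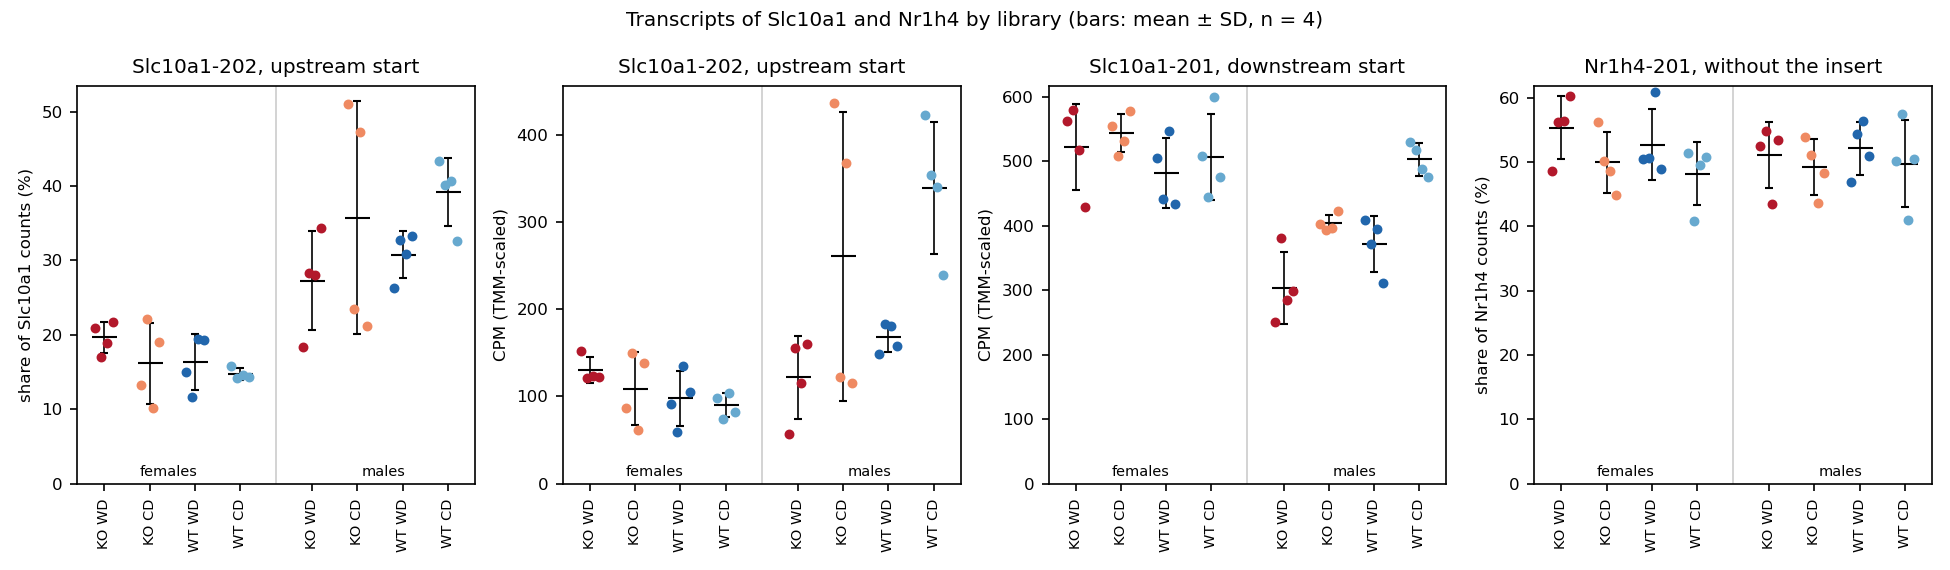
From left to right, the share of Slc10a1 counts given to Slc10a1-202 in percent, the CPM of Slc10a1-202, the CPM of Slc10a1-201, and the share of Nr1h4 counts given to Nr1h4-201 (without the insert) in percent, with 1 point per library, by group, and the group mean and SD (n = 4). Slc10a1-202, from the upstream start, reaches 423 CPM in WT males and 437 CPM in KO males on the CD and stays at or below 152 CPM in females, while Slc10a1-201 lies between 429 and 599 CPM in females and the Nr1h4 share between 40.9% and 60.9% in all groups.

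Of the canalicular pumps, Abcb11 (chr2:69238282-69342616, minus strand), which encodes the bile salt export pump BSEP, showed the smallest diet effect in WT males. WT males had 920.1, 905, 980.0 and 692 CPM on the WD, against 987, 841, 914 and 871 CPM on the CD, and the log2 fold change was -0.04 (95% interval -0.28 to 0.19). KO males had 709, 864, 606 and 549 CPM on the WD, against 986, 1077, 878 and 902 CPM on the CD. The KO libraries did not overlap between diets, but the log2 fold change of -0.48 ± 0.16 did not pass in the pair (adjusted p = 0.149, edgeR). It passed as a contrast of all 32 libraries (adjusted p = 0.0294, edgeR) and with DESeq2 with length offsets (adjusted p = 0.00965). In KO females the means were 881 ± 84.9 CPM on the WD and 948 ± 75.8 CPM on the CD, and in WT females 870.4 ± 160.4 CPM on the WD and 938 ± 90.2 CPM on the CD. Averaged over the 4 sex and genotype groups, Abcb11 was lower on the WD by a small amount (log2 fold change -0.20 ± 0.07, adjusted p = 0.038, edgeR). That call was lost without the filter on low counts (adjusted p = 0.0809), without the 4 libraries with acinar transcripts (adjusted p = 0.068) and when any 1 of 15 of the 32 libraries, spread over all 8 groups, was left out (adjusted p = 0.0503 to 0.0742).

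Abcb4 (chr5:8893717-8959231, plus strand) encodes MDR2, the flippase that supplies phosphatidylcholine to bile. KO males had 389, 416, 333 and 409.5 CPM on the WD, against 217, 222, 228 and 194 CPM on the CD. WT males had 279, 379, 297 and 306 CPM on the WD, against 228, 215, 211 and 174 CPM on the CD. All males on the WD were above all males of their genotype on the CD. Abcb4 rose by a log2 fold change of 0.86 ± 0.12 in KO males (adjusted p = 0.00386, edgeR) and 0.61 ± 0.12 in WT males (adjusted p = 0.00915, edgeR). These calls held in the alternative fits. In females the diets overlapped. KO females had 234, 197, 233 and 293 CPM on the WD, against 339, 212, 247 and 220.1 CPM on the CD (log2 fold change -0.10, 95% interval -0.42 to 0.22). WT females had 188, 249.7, 214 and 302 CPM on the WD, against 225, 168, 187 and 312 CPM on the CD (0.08, -0.31 to 0.47).

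Abcc2 (chr19:43782192-43840740, plus strand) encodes MRP2, the canalicular pump for bilirubin glucuronides and other conjugated organic anions. WT males had 697, 765, 1117 and 977 CPM on the WD, against 682, 671, 675 and 494 CPM on the CD. These libraries did not overlap, although the lowest on the WD was only just above the highest on the CD, and the log2 fold change of 0.50 ± 0.16 did not pass (adjusted p = 0.0599, edgeR). It passed without the filter on low counts (adjusted p = 0.0437) and without WT males on the WD replicate 1 (adjusted p = 0.0353). KO males had 726, 1050.4, 907 and 982 CPM on the WD, against 754, 607, 613 and 765 CPM on the CD, and the groups overlapped at replicate 1 of the WD (0.43 ± 0.15, adjusted p = 0.167, edgeR). KO females averaged 767 ± 34.8 CPM on the WD and 639 ± 126 CPM on the CD, and WT females had 537 to 755 CPM on the WD and 459 to 750.2 CPM on the CD. Over the 4 sex and genotype groups the mean diet effect was 0.30 ± 0.08 (adjusted p = 0.0108, edgeR). It did not pass with length offsets (adjusted p = 0.079 in edgeR and 0.0543 in DESeq2).

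Atp8b1 (chr18:64528967-64661267, minus strand) encodes an aminophospholipid flippase of the canalicular membrane. WT males had 95.9, 72.9, 92.2 and 69.0 CPM on the WD, against 58.4, 58.5, 60.4 and 61.4 CPM on the CD. Atp8b1 was higher in every WT male on the WD, and the CD libraries were unusually close to each other (59.7 ± 1.48 CPM). The log2 fold change of 0.47 ± 0.11 passed (adjusted p = 0.0184, edgeR), but not with length offsets in edgeR (adjusted p = 0.0631), in the model of all 32 libraries (adjusted p = 0.0565) or without replicate 3 of the WD (adjusted p = 0.0532). KO males averaged 68.0 ± 8.61 CPM on the WD and 75.7 ± 12.3 CPM on the CD (-0.14 ± 0.13, adjusted p = 0.627, edgeR). Averaged over both sexes, the diet effect in KO minus that in WT mice was -0.27 ± 0.15 (adjusted p = 0.646, edgeR), and it was not tested in males alone. KO females averaged 53.9 ± 7.27 CPM on the WD and 47.4 ± 12.0 CPM on the CD, and WT females 60.0 ± 5.02 CPM on the WD and 55.4 ± 11.8 CPM on the CD.

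In WT males longer transcripts tended to be higher on the WD over all genes, with a Spearman correlation across genes of 0.35 between log2 fold change and length, and in KO males of 0.24, a description of these libraries in which genes are not independent. With this trend removed, a fit added after the trend was seen, Abcb4 and Abcc3 still passed in males of both genotypes, at 0.51 and 1.20 in WT males and 0.81 and 2.20 in KO males, and Slc10a1 passed in WT males at -0.59. Atp8b1 fell short at 0.31 (adjusted p = 0.099, edgeR).

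The largest diet effect among the 10 genes was that of Abcc3 (chr11:94343295-94392997, minus strand), which encodes MRP3, a basolateral efflux pump for glucuronides and bile acids. KO males had 235, 263, 262 and 371 CPM on the WD, against 46.9, 72.7, 67.5 and 49.2 CPM on the CD. WT males had 139, 275, 179.8 and 225 CPM on the WD, against 80.6, 100.2, 83.8 and 65.0 CPM on the CD. In each genotype the lowest male on the WD was above the highest on the CD. The log2 fold change was 2.27 ± 0.19 in KO males (adjusted p = 0.000146, edgeR) and 1.32 ± 0.21 in WT males (adjusted p = 0.00704, edgeR). Averaged over both sexes, the diet effect in KO minus that in WT mice was 0.31 ± 0.21 (adjusted p = 0.705, edgeR). Whether it differed between KO and WT males alone was not tested. In females of both genotypes the diets overlapped, and neither diet effect on Abcc3 passed. KO females had 152, 171, 189.6 and 179 CPM on the WD, against 170.1, 144, 200.3 and 192 CPM on the CD (-0.04, 95% interval -0.28 to 0.19). WT females had 165, 269, 162 and 192 CPM on the WD, against 165, 109, 139.9 and 231 CPM on the CD (0.28, -0.17 to 0.73). Cholangiocytes also express Abcc3, and their summed markers ran from 59.6 to 154 CPM in KO males on the WD against 64.9 to 114 CPM on the CD, and from 61.1 to 77.8 CPM in WT males on the WD against 71.5 to 85.5 CPM on the CD. The sum of the 5 adipocyte markers moved with the male diet calls. It was 40.1 to 110.2 CPM on the WD against 0.42 to 1.14 CPM on the CD in KO males. In WT males it was 9.69 to 43.3 CPM on the WD against 0.61 to 4.63 CPM on the CD. Over all libraries Cfd reached 96.1 CPM and Cidec 40.5 CPM, while Adipoq, which defines adipocytes, reached 3.32 CPM at most and was at 0 in 16 libraries. The 6 small intestine markers summed to 127 to 189 CPM on the WD against 62.2 to 68.5 CPM on the CD in KO males and 128 to 164 CPM on the WD against 56.4 to 71.6 CPM on the CD in WT males. That sum was Fabp2, as the other 5 stayed at or below 1.37 CPM. The part of these markers in the diet results was not tested.

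The 2 main transcripts of Abcc3 differ by an insert of 3 bases at an exon border, chr11:94359941-94359943 on the minus strand, in capitals with 20 bases of exon on either side.
Abcc3-206: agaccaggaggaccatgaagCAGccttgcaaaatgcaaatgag
Abcc3-201: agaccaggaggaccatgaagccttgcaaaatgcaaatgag
The transcript with CAG took 45.1% to 80.1% of Abcc3 counts over the 32 libraries (median 64.8%), with wide overlap between females (median 64.5%) and males (median 65.8%).

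Abcc4 (chr14:118482692-118706219, minus strand) encodes MRP4, another basolateral efflux pump. WT females had 18.3, 12.8, 13.7 and 5.57 CPM on the WD, against 5.17, 4.65, 3.59 and 5.80 CPM on the CD. KO females had 7.69, 8.98, 7.88 and 4.44 CPM on the WD, against 2.60, 3.45, 5.47 and 5.46 CPM on the CD. In both genotypes 3 of 4 females on the WD lay above all females on the CD, and the fourth lay within their range. The log2 fold change was 1.37 ± 0.32 in WT females (adjusted p = 0.25, edgeR) and 0.75 ± 0.27 in KO females (adjusted p = 0.381, edgeR). Neither passed. The low library of the WT females on the WD, replicate 4, was one of those with acinar transcripts, and without that library alone the WT comparison passed (adjusted p = 0.0115, edgeR). Without all libraries with acinar transcripts the fold change was 1.75 (adjusted p = 0.0216), and it passed too in the model of all 32 libraries (adjusted p = 0.0163). The difference between the diet effects, females minus males, was 0.85 ± 0.28 and did not pass (adjusted p = 0.227, edgeR). It was 0.29 and 0.28 with length offsets in edgeR and DESeq2 (adjusted p = 0.798 and 0.82), and it passed at 1.11 without the libraries with acinar transcripts (adjusted p = 0.0379, edgeR). In males Abcc4 was low on both diets, at 3.58 ± 0.543 CPM on the WD and 3.24 ± 0.192 CPM on the CD in KO and 3.35 ± 0.895 CPM on the WD and 2.74 ± 0.657 CPM on the CD in WT mice. The mean diet effect over the 4 groups was 0.63 ± 0.14 (adjusted p = 0.002, edgeR).

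**Figure D4:**
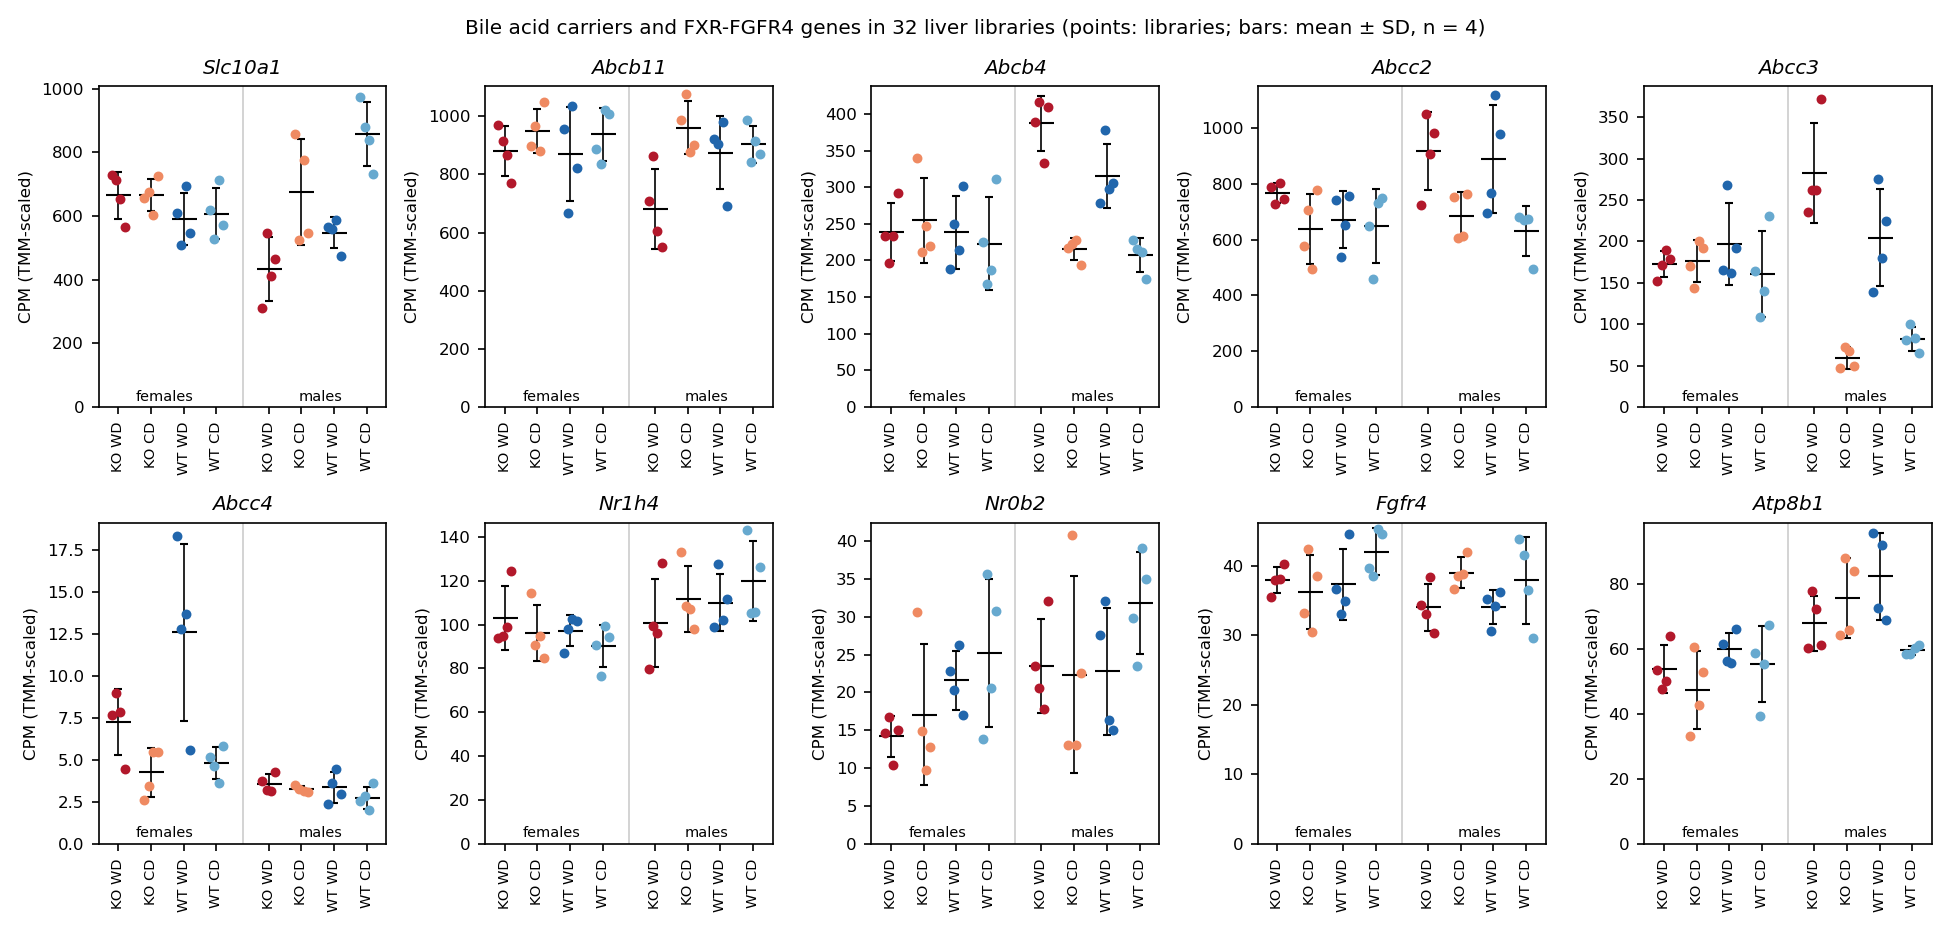
CPM of each of the 10 genes in every library, 1 panel per gene and 1 point per library, by group, with the group mean and SD (n = 4). Abcc3 and Abcb4 are higher on the WD in males of both genotypes, and Abcc4 reaches 18.3 CPM in females on the WD.

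Nr1h4 (chr10:89454234-89533585, minus strand), the gene of FXR itself, differed little between diets. KO males had 79.7, 99.5, 96.2 and 128 CPM on the WD, against 133, 109, 107 and 98.1 CPM on the CD. WT males had 98.9, 128, 102 and 112 CPM on the WD, against 143, 105, 106 and 126 CPM on the CD. The diets overlapped in both genotypes. The log2 fold change was -0.14 in KO males (95% interval -0.42 to 0.15) and -0.12 in WT males (-0.36 to 0.12), and it was 0.09 in KO females (-0.15 to 0.33) and 0.09 in WT females (-0.13 to 0.31).

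FXR is made in isoforms that start at different promoters and with or without 4 amino acids beside the DNA-binding domain. The insert of 12 bases lies at chr10:89483372-89483383 and is shown in capitals because transcripts with and without it were similarly abundant.
Nr1h4-202: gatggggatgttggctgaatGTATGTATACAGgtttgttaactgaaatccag
Nr1h4-201: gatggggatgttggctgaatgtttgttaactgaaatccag
Transcripts with the insert took 39.1% to 59.1% of Nr1h4 counts (median 49.3%, n = 32), at a median of 49.4% in females and 49.0% in males. Nr1h4-203, which carries the insert too and starts 26936 bases upstream of Nr1h4-201, took 29.7% to 55.1% (median 43.5%). The shares of the insert and of this start are not separate measurements, as most counts with the insert went to Nr1h4-203. In KO males on the WD replicate 1, for example, both were 47.5%. Over the 6 genes with several transcripts, 72 tests of shares in pairs of groups gave 4 at the smallest p that an exact permutation test of 4 against 4 allows (0.0286), and none passed after adjustment (adjusted p = 0.514). At that floor even full separation in a few pairs cannot pass over 72 tests, so the lack of calls is not evidence of equal shares. In all libraries but KO females on the WD replicate 3 (42.8%), Salmon gave either 0 or nearly all of the Abcc4 counts to Abcc4-201, so its transcripts cannot be resolved.

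Nr0b2 (chr4:133553376-133556536, plus strand) encodes SHP, the repressor that FXR raises. It varied widely between mice of a group, from 9.74 to 40.8 CPM over all libraries. KO males had 23.5, 20.5, 17.8 and 32.1 CPM on the WD, against 12.98, 40.8, 13.1 and 22.6 CPM on the CD. WT males had 27.5, 32.1, 16.4 and 15.1 CPM on the WD, against 29.9, 23.5, 39.1 and 34.95 CPM on the CD. The groups overlapped, with log2 fold changes of 0.09 ± 0.40 in KO males (adjusted p = 0.943, edgeR) and -0.48 ± 0.27 in WT males (adjusted p = 0.284, edgeR). At this spread the 95% interval in KO males, -0.70 to 0.87, includes changes of either direction.

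Fgfr4 (chr13:55152640-55168759, plus strand), the receptor for FGF15, stayed in a narrow range. It ran from 29.7 to 45.3 CPM over all 32 libraries. The diet effects were -0.18 in KO males (95% interval -0.37 to 0.01), -0.15 in WT males (-0.39 to 0.09), 0.06 in KO females (-0.15 to 0.27) and -0.19 in WT females (-0.42 to 0.04). None passed, nor did the mean diet effect of -0.12 ± 0.06 (adjusted p = 0.114, edgeR). Over the 4 sex and genotype groups 6 of the 10 genes passed the test of the mean diet effect, where 19.4% of 13539 genes passed. Abcc3, Abcb4, Abcc2 and Abcc4 were higher on the WD and Slc10a1 and Abcb11 were lower. For Abcc3 this mean effect was 0.95 ± 0.11 (adjusted p = 6.29e-07, edgeR) and for Slc10a1 -0.34 ± 0.08 (adjusted p = 0.00227, edgeR). Both means join unlike estimates in the sexes. For Abcc3 these were 2.27 and 1.32 in KO and WT males against -0.04 and 0.28 in KO and WT females. For Slc10a1 they were -0.63 and -0.64 in KO and WT males against -0.01 and -0.06 in KO and WT females.

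The second question was whether loss of Nudt7 changed these genes. In none of the 4 comparisons of KO with WT mice did any of the 10 genes pass (edgeR; DESeq2 with length offsets also called none). Few genes passed at all, 0.0162% of those tested in WD males, 0.00814% in CD males, 0.0156% in WD females and 0.0314% in CD females. At an unadjusted p under 0.05 there were 2 members in WD males, 2 in CD males, 1 in WD females and 0 in CD females. Over all genes these were 1194 of 12319 in WD males, 1197 of 12289 in CD males, 981 of 12824 in WD females and 876 of 12753 in CD females. Libraries of KO and WT mice did not overlap for 0 members in WD males (5.22% of all genes), 1 in CD males (4.82%), 1 in WD females (4.35%) and 0 in CD females (4.27%). In the mean genotype effect, where 0.0886% of all genes passed, no member passed, and DESeq2 with length offsets called none. At an unadjusted p under 0.05 there was 1 member (1231 of 13539 over all genes).

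The members below 0.05 unadjusted in a pair of KO and WT groups were Nr0b2, Atp8b1, Abcc3 and Abcb4. On the WD, KO females had 14.6, 16.8, 10.4 and 15.0 CPM of Nr0b2, against 22.8, 20.3, 26.3 and 17.0 CPM in WT females. KO females were all lower, by a narrow margin (log2 fold change -0.60 ± 0.16, adjusted p = 0.414, edgeR). The mean genotype effect on Nr0b2 was -0.41 ± 0.18 (adjusted p = 0.521, edgeR). Atp8b1 had 64.4, 88.3, 66.0 and 84.3 CPM in KO males on the CD, against 58.4, 58.5, 60.4 and 61.4 CPM in WT males, and these groups did not overlap either (0.35 ± 0.11, adjusted p = 0.495, edgeR). The Abcc3 means of KO and WT males stood in opposite order on the CD and the WD, but the groups overlapped on both and neither difference passed. KO males averaged 59.1 ± 12.9 CPM and WT males 82.4 ± 14.4 CPM on the CD (-0.48 ± 0.17, adjusted p = 0.495, edgeR). On the WD, KO males averaged 283 ± 60.4 CPM and WT males 205 ± 58.9 CPM (0.48 ± 0.21, adjusted p = 0.512, edgeR). Abcb4 averaged 387 ± 37.7 CPM in KO males and 315 ± 43.8 CPM in WT males on the WD (0.32 ± 0.13, adjusted p = 0.499, edgeR). Whether the diet effect in KO differed from that in WT mice was tested over all genes, averaged over both sexes and not in each sex alone. None of the members passed in edgeR or in DESeq2 with length offsets, where 0% of all genes passed in edgeR. At an unadjusted p under 0.05 there were 0 members (1141 of 13539 over all genes, edgeR). Whether the genotype effect differed between the sexes was tested over all genes too, averaged over both diets, with 0 members passing in both tools (0% of all genes passed in edgeR). Below 0.05 unadjusted were 2 members, Slc10a1 and Abcc4 (1501 of 13539 over all genes).

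The third question was how the sexes differed. On the CD, 1 of the 10 genes passed between KO females and KO males, where 6.66% of all genes passed, and 1 between WT females and WT males, where 2.24% did. Both were Abcc3. On the WD, 5 passed in KO mice, where 9.66% of all genes did, and 2 in WT mice, where 9.64% did. The groups did not overlap for 2 members in KO mice on the CD (15.0% of all genes), 3 in WT mice on the CD (10.1%), 5 in KO mice on the WD (17.1%) and 2 in WT mice on the WD (17.3%).

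Abcc3 was higher in females on the CD in both genotypes, and on the WD it was lower in KO females than in KO males. On the CD, KO females had 170.1, 144, 200.3 and 192 CPM, against 46.9, 72.7, 67.5 and 49.2 CPM in KO males (log2 fold change 1.59 ± 0.17, adjusted p = 0.000146, edgeR). WT females had 165, 109, 139.9 and 231 CPM on the CD, against 80.6, 100.2, 83.8 and 65.0 CPM in WT males (0.97 ± 0.21, adjusted p = 0.0418, edgeR). Females were all above males of their genotype on the CD. The WT call was lost when any 1 of its 8 libraries other than WT females replicate 2 was left out (adjusted p = 0.0554 to 0.126). On the WD, KO females averaged 173 ± 15.99 CPM and KO males 283 ± 60.4 CPM, and now every female was below every male (-0.72 ± 0.15, adjusted p = 0.0103, edgeR). WT females averaged 197 ± 49.6 CPM and WT males 205 ± 58.9 CPM on the WD, a difference of -0.05 (95% interval -0.50 to 0.40).

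Whether the diet acted differently in the sexes was tested as the diet effect in females minus that in males. Abcc3 and Abcb4 passed, 2 of 10 genes, where 0.244% of all genes passed. Abcc3 differed by -1.66 ± 0.21 (adjusted p = 0.0002, edgeR) and passed in all alternative fits. Abcb4 differed by -0.73 ± 0.17 at the edge of the threshold (adjusted p = 0.0494, edgeR), and its call was lost in 5 alternative fits (adjusted p = 0.0506 to 0.0635) and without any 1 of 23 of the 32 libraries, among them all 8 of the males on the CD (adjusted p = 0.059 to 0.105). In KO mice on the WD the sexes were apart for Abcb4, with 234, 197, 233 and 293 CPM in females, against 389, 416, 333 and 409.5 CPM in males (-0.71 ± 0.14, adjusted p = 0.0083, edgeR).

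Abcc4 was higher in females. On the WD, WT females averaged 12.6 ± 5.27 CPM and WT males 3.35 ± 0.895 CPM (1.91 ± 0.36, adjusted p = 0.0114, edgeR), and KO females 7.24 ± 1.96 CPM and KO males 3.58 ± 0.543 CPM (1.00 ± 0.22, adjusted p = 0.015, edgeR). Every female was above every male of her genotype on the WD. The KO call was lost without KO females replicate 2 (adjusted p = 0.0599) or 3 (adjusted p = 0.0513). On the CD the groups overlapped and neither difference passed, at 0.40 ± 0.25 in KO mice (adjusted p = 0.381, edgeR) and 0.82 ± 0.22 in WT mice (adjusted p = 0.0922, edgeR).

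In KO mice on the WD, Slc10a1 was higher in females (0.60 ± 0.17, adjusted p = 0.0426, edgeR) and Nr0b2 was lower (-0.73 ± 0.19, adjusted p = 0.0409, edgeR). KO females had 728, 713, 652 and 565 CPM of Slc10a1, against 310.4, 548, 410.0 and 466 CPM in KO males, and 14.6, 16.8, 10.4 and 15.0 CPM of Nr0b2, against 23.5, 20.5, 17.8 and 32.1 CPM. Neither gene overlapped between the sexes, yet the Slc10a1 call was lost with the length trend removed (adjusted p = 0.076) and without any 1 of the 8 libraries other than males replicate 2 and females replicate 4 (adjusted p = 0.0544 to 0.117). The Nr0b2 call was lost without any 1 other than males replicate 3 (adjusted p = 0.0587 to 0.098), without the filter on low counts (adjusted p = 0.0734) and in the 32-library model (adjusted p = 0.222). In WT mice on the CD the order of Slc10a1 was the reverse, with 619, 527, 714 and 571 CPM in females, against 975, 881, 839 and 733 CPM in males, and no overlap, but the fold change of -0.49 ± 0.14 did not pass (adjusted p = 0.12, edgeR). Atp8b1 in WT mice on the WD had 61.8, 56.4, 55.6 and 66.4 CPM in females, against 95.9, 72.9, 92.2 and 69.0 CPM in males (-0.45 ± 0.12, adjusted p = 0.0379, edgeR), a call lost with length offsets in edgeR (adjusted p = 0.0703), in the 32-library model (adjusted p = 0.0516) and without males replicate 1 or 3 or females replicate 1, 2 or 3 (adjusted p = 0.0748 to 0.117).

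Averaged over genotype and diet, 4 of the 10 genes passed between females and males, where 31.6% of all genes passed. Abcc4 was higher in females (1.03 ± 0.14, adjusted p = 1.33e-06, edgeR), as was Abcc3 (0.44 ± 0.11, adjusted p = 0.00195, edgeR). Atp8b1 was lower in females (-0.40 ± 0.08, adjusted p = 0.000214, edgeR), and so was Nr1h4 (-0.20 ± 0.07, adjusted p = 0.0225, edgeR). The Nr1h4 call was lost without the libraries with acinar transcripts (adjusted p = 0.0632). In KO mice the mean for Abcc3 joins opposite orders on the CD and the WD.

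The rest of the pathway was read in 7 lists that hold 72 other genes, of which 67 or 68 were tested. In WT males 11 of 67 rose on the WD and 3 fell, where 13.7% of all genes passed, and in KO males 5 of 67 rose and 0 fell, where 2.60% passed. In KO females 1 of 68 rose and 1 fell (0.125% of all genes passed). WT females had 0 calls in edgeR and in DESeq2 with length offsets, with 8 of 68 genes below 0.05 unadjusted (1078 of 12737 over all genes). Biliary sterol export carried the largest diet effects, with both of its tested genes higher in males. In WT females neither passed, but both were below 0.05 unadjusted, with a median log2 fold change of 0.91. In KO females the median was 1.25, and DESeq2 with length offsets called both. Abcg5 and Abcg8 form the canalicular cholesterol pump. Abcg5 had 221, 352, 298 and 216 CPM in KO males on the WD, against 63.0, 72.4, 59.7 and 91.5 CPM on the CD (1.94 ± 0.18, adjusted p = 0.000305, edgeR). In WT males Abcg5 had 249.8, 209, 296 and 244 CPM on the WD, against 50.6, 70.3, 83.01 and 47.3 CPM on the CD (1.99 ± 0.19, adjusted p = 0.000656, edgeR). Abcg8 rose by 1.96 ± 0.17 in KO males and 1.79 ± 0.17 in WT males (adjusted p = 0.000146 and 0.000656, edgeR), and by 1.13 ± 0.16 in KO females (adjusted p = 0.0293, edgeR).

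Of 13 other carriers tested in males, 3 rose in WT males on the WD, where 13.7% of all genes passed, and 1 in KO males, where 2.60% did. Abcg2, a canalicular pump for sulfate conjugates and drugs, rose in both, by 0.76 ± 0.15 in WT males (adjusted p = 0.00874, edgeR) and 0.62 ± 0.11 in KO males (adjusted p = 0.0133, edgeR). The uptake carriers Slco1a1 (0.55 ± 0.12) and Slco1b2 (0.58 ± 0.13) rose in WT males (adjusted p = 0.0129 and 0.0142, edgeR), but both calls were lost with length offsets in edgeR (adjusted p = 0.109 and 0.128). Slco1b2 was lost with DESeq2 with length offsets as well (adjusted p = 0.0569), and Slco1a1, which belongs to a family whose members can share reads, in the 32-library model (adjusted p = 0.77). Slc51b, the beta subunit of the basolateral bile acid exporter, was at or below 4.21 CPM in every library.

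Of 10 canalicular scaffold and trafficking genes, 0 passed in KO males (3 below 0.05 unadjusted, 0 in DESeq2 with length offsets). In WT males Tmem30a, the subunit that P4 flippases such as Atp8b1 need, rose by 0.49 ± 0.10 (adjusted p = 0.00912, edgeR). Tmem30a did not pass with length offsets in edgeR (0.26, adjusted p = 0.113). Among 12 tested partners of FXR and FGFR4, 0 passed in males of either genotype (2 below 0.05 unadjusted in WT and 3 in KO males, with 1 called in each by DESeq2 with length offsets). Over all genes, 3615 of 12235 were below 0.05 unadjusted in WT males and 2162 of 12407 in KO males. Of 2 tested receptors of the xenobiotic list, Nr1i2, the gene of PXR, rose in WT males by 0.48 ± 0.10 (adjusted p = 0.0111, edgeR).

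Of 13 other genes known as hepatic FXR targets, 1 fell in WT males, a share below the 13.7% of all genes that passed there. In KO males 0 passed, where 2.60% of all genes did. There 5 were called by DESeq2 with length offsets and 7 were below 0.05 unadjusted (2162 of 12407 over all genes). Apoc3, an apolipoprotein that slows triglyceride clearance and that FXR is known to repress, had 829, 732, 742 and 685 CPM in WT males on the WD, against 1243, 1136, 1749 and 1312 CPM on the CD (-0.86 ± 0.14, adjusted p = 0.00414, edgeR). It passed in 7 of 7 alternative fits, but the size ran from -0.88 to -0.43 (adjusted p at most 0.0409, edgeR or DESeq2). The median log2 fold change of this list was -0.07 in KO males and -0.27 in WT males, where the median of all genes was 0.01 in both, and it was -0.0035 in KO females and -0.07 in WT females.

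Of 15 genes of bile acid synthesis and conjugation, 3 rose and 2 fell in WT males, where 13.7% of all genes passed. In KO males 2 rose, where 2.60% of all genes passed. The genes that fell were Cyp8b1, the sterol 12-alpha-hydroxylase needed for cholic acid (-0.997 ± 0.22, adjusted p = 0.0193, edgeR), and Cyp39a1, an oxysterol 7-alpha-hydroxylase (-1.33 ± 0.29, adjusted p = 0.0243, edgeR). Those that rose in WT males were Scp2, Hsd17b4 and Acox2 of peroxisomal side-chain shortening, at 0.60, 0.46 and 0.43, and the last 2 of these rose in KO males as well, Hsd17b4 by 0.58 ± 0.13 and Acox2 by 0.55 ± 0.12 (adjusted p = 0.0386 and 0.0359, edgeR). With length offsets in edgeR, Scp2 fell short in WT males at 0.30 (adjusted p = 0.126), and Acox2 fell short in WT males (adjusted p = 0.0505) and KO males (adjusted p = 0.0602). Cyp39a1 did not pass in WT males without the filter on low counts (adjusted p = 0.063, edgeR). Cyp39a1 also fell in KO females (-1.19 ± 0.17, adjusted p = 0.0293, edgeR), a call lost in the 32-library model (adjusted p = 0.0722).

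None of the other pathway genes passed between KO and WT mice, and DESeq2 with length offsets called 1, in WD females. Below 0.05 unadjusted were 9 of 67 in WD males (1194 of 12319 over all genes) and 8 of 67 in CD males (1197 of 12289). In females there were 4 of 68 on the WD (981 of 12824) and 5 of 68 on the CD (876 of 12753). Between the sexes 19 of 68 were higher and 20 lower in females in the mean sex effect, where 31.6% of all genes passed. Among carriers Abcb1a, a canalicular drug pump, was higher in females (1.83 ± 0.15, adjusted p = 9.07e-11, edgeR) and Abcg2 lower (-1.44 ± 0.07, adjusted p = 1.39e-16, edgeR). In synthesis Cyp7b1, the oxysterol 7-alpha-hydroxylase of the alternative pathway, was lower in females (-3.09 ± 0.17, adjusted p = 1.56e-13, edgeR), with means of 22.4 ± 5.94 CPM in KO females and 164 ± 75.8 CPM in KO males on the WD. Vldlr, a lipoprotein receptor that FXR is known to raise, was higher in females (2.47 ± 0.15, adjusted p = 2.52e-13, edgeR), and Nr1i3, the gene of the receptor CAR, was too (0.92 ± 0.14, adjusted p = 1.66e-05, edgeR).

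Within groups, Nr1h4 was compared with Nr0b2, Abcb11 and Abcb4 over the 16 libraries of each sex, after each group's mean log2 CPM had been subtracted (6 relations). Only that with Abcb4 in females passed, with r = 0.71 (permutation p = 0.00688, adjusted 0.0413) and rho = 0.67 (permutation p = 0.0127, adjusted 0.0764). Without the 2 libraries farthest from the median of Nr1h4, r was 0.54 and the call was lost (permutation, adjusted p = 0.88). It was lost too without the libraries with acinar transcripts, at r = 0.79 (permutation, adjusted p = 0.195). By log2 TPM r was 0.73 (permutation, adjusted p = 0.0375), and with a linear length trend removed 0.71 (permutation, adjusted p = 0.0415). In males r with Abcb4 was 0.39 (permutation, adjusted p = 0.545). The other 4 relations had r between -0.20 and 0.17, and none of them passed (adjusted p = 0.795 by permutation).

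The genes most like each member were taken among 8534 genes by the lower of the Pearson r over the 16 male and over the 16 female libraries, as a description of these libraries, whose groups and composition the genes share. Abcc3 was most like Mmd (0.84) and Slc27a2 (0.83), and Abcb4 most like Mmd too (0.81) and Cyp4f15 (0.79). Slc10a1 went with Slc6a12 (0.85) and Rab5b (0.77), Abcb11 with Stard4 (0.80) and Cxadr (0.71), and Abcc2 with Nr1d2 (0.83) and Dhtkd1 (0.80). For Nr0b2 the nearest were Tmem37 (0.74) and Mgat1 (0.72), for Atp8b1 Hook1 (0.74) and Hspa4 (0.72), and for Abcc4 Rassf4 (0.71) and Sdc3 (0.70). Nr1h4 was nearest to Gm16332 (0.74) and then Lepr (0.60), and Fgfr4 to Med12 (0.67) and Myrf (0.64).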

How the data were processed

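The authors isolated liver RNA, prepared mRNA libraries (KAPA HyperPrep), read 50 bases from both ends and quantified transcripts with Salmon 1.3.0 (GRCm38, per the labels). The deposited files hold estimated counts and TPM of 117135 transcripts, with lengths. The authors' own tests used DESeq2 1.28.1. Here estimated counts were summed per gene with GENCODE M21 (115973 transcripts matched, and 0.315% to 0.424% of counts per library fell outside), rounded, and tested with edgeR 4.0.16 (R 4.3.3; TMM, robust quasi-likelihood F test) in 12 pairs of groups and 6 contrasts of all 32 libraries, where a gene needed 10 counts or more in 4 or more libraries. P-values were adjusted by Benjamini-Hochberg over all genes, with a threshold of 0.05. SE are the size of the log2 fold change over the root of its F statistic, and 95% intervals are built from them with the normal quantile. The F test has few degrees of freedom, so these intervals are too narrow and can leave out 0 where its p is above 0.05. SD is over 4 mice, and p-values measure the spread between mice. The code was tested on simulated data.

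The members, the 7 pathway lists and the marker lists were chosen with earlier results of these data known. All 10 members are named, along with up to 3 called genes per list and comparison and the 2 most alike genes of each member. Alternatives were RLE factors, no filter, length offsets in edgeR and in DESeq2 1.42.0, a replicate block, pairs taken as contrasts of the 32-library model and fits with 1 library omitted. After seeing the data, removal of a length trend (lowess, span 0.3), leaving out 4 libraries with acinar transcripts above 400 CPM, and the sex test of Slc10a1 shares were added. Antisense or overlapping reads depend on Salmon's assignment. Permutations used SciPy 1.17.1. The result of 1 gene of the canalicular scaffold and trafficking list is not reported here.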

Additional observations from a re-analysis of the deposited data

Results flagged for a closer look

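Among 80 checks of a single mouse against the other 3 of its group (10 genes in 8 groups), 2 mice stood far from the others, and chance flags about 1 in 20 groups. Abcc2 in WT males on the CD replicate 4 was 494 CPM, where the other 3 had 671 to 682 CPM. Nr1h4 in KO females on the WD replicate 4 was 124 CPM, where the other 3 had 93.8 to 98.9 CPM. The diet effect differed between the sexes for 2 genes by the interaction test of edgeR. For Abcc3 the log2 fold change in females minus that in males was -1.66 (SE 0.21, adjusted p = 0.0002), with the call for a higher level on the WD made in males of both genotypes. For Abcb4 it was -0.73 (SE 0.17, adjusted p = 0.0494), a value at the edge of the threshold.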

How the results depend on the processing

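Of 922 refits of 37 single-gene results, 824 kept direction and side of the threshold, 87 fell short of it, 11 newly passed it and 0 turned direction. For the other pathway genes, 114 of 998 refits lost a call and 0 turned direction. The number of members passing rose to 1 in WT females for the diet (main 0) in the 32-library model and without the libraries with acinar transcripts, and to 4 in KO males (main 2) in the 32-library model. For females against males in WT mice on the CD it was 2 with edgeR length offsets, 3 with DESeq2 and 0 with the replicate block (main 1), and in KO mice on the CD 2 with RLE factors, DESeq2, the block and the 32-library model (main 1). In WT mice on the WD it was 1 with edgeR length offsets and the 32-library model (main 2), and for the diet effect in females minus males 1 with RLE factors, no filter, edgeR length offsets, the block and the length trend removed (main 2). Replicate numbers do not pair the mice (mean correlation of deviations 0.0113 for the same number and -0.00315 for others). A fit with the number as a block lost the calls of Atp8b1 for the diet in WT males (adjusted p = 0.0593), of Abcc3 between the sexes in WT mice on the CD (adjusted p = 0.17) and of Slc10a1 between the sexes in KO mice on the WD (adjusted p = 0.0719), and for the diet those of Slco1a1, Acox2 and Hsd17b4 in WT males, Acox2 and Hsd17b4 in KO males and Cyp39a1 in KO females (adjusted p = 0.0507 to 0.0697).

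Leaving out each library in turn gave 3 to 5 members for the diet in WT males, 0 to 1 in WT females, 2 in KO males and 0 in KO females, and 0 in all KO against WT comparisons and in the mean genotype effect. For females against males it gave 0 to 1 and 1 to 2 on the CD in WT and KO mice, and 1 to 3 and 2 to 5 on the WD in WT and KO mice. It gave 5 to 7 for the mean diet effect, 4 to 6 for the mean sex effect, 1 to 2 for the diet effect in females minus males and 0 for the other 2 contrasts. Among the transcript shares 0 passed in every such fit, where 3 against 4 allow no p below 0.0571.

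Relations of Nr1h4 turned sign. With Nr0b2, r was -0.0274 by log2 TPM and -0.118 without 2 libraries in males, and -0.0398 and -0.439 in females, where it was 0.62 without the libraries with acinar transcripts (permutation, adjusted p = 0.269). With Abcb11, r was 0.0543 in males and 0.118 in females without 2 libraries. The cause of these changes was not tested. Over all genes, calls for the diet in WT males fell to 481 with edgeR length offsets, 1031 with DESeq2 and 672 with the block (main 1678), and in KO males rose to 808 with DESeq2 and 747 in the 32-library model (main 323). Counts of 21 to 254 limit Abcc4, and the spread between mice limits Nr0b2.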
